A study of Mus musculus with 24 samples.

Results

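The small RNA content of the sensorimotor cortex was compared between adult and juvenile mice that had been operated on but not injured. The comparison took in all 6 SHAM samples collected 12 h after surgery, 3 from mice operated on at postnatal day 15 (P15) and 3 from mice operated on at postnatal day 90 (P90), out of 24 samples in the series. The series crossed both ages with SHAM or spinal cord injury (SCI) and with collection at 12 h or 3 days, with 3 samples in each of the 8 groups. All mice were C57BL/6J males, wild type and with no transgene named. In a SHAM mouse the cervical spinal cord was exposed under anaesthesia and left intact, whereas in an SCI mouse the cord was completely transected, at C6 by the study's methods. Every SHAM mouse had therefore been through anaesthesia and surgery, and mice left without an operation were not analysed here. The tissue is named as sensorimotor cortex in the sample descriptions, and the study's methods also name layer V of it. Samples were collected individually, so the replicates stand for separate mice and the spread includes the difference between mice.

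A microRNA (miRNA) is cut from a hairpin precursor by Drosha and then Dicer, and the 5p or the 3p arm of the hairpin is loaded into an Argonaute protein. The seed, bases 2 to 8 of the mature miRNA, pairs with the target transcript, and miRNAs that share a seed can repress the same transcripts. In the maturing cortex several families are well known. The miR-29 family represses collagens, DNA methyltransferases and pro-apoptotic BH3-only genes in neurons, miR-132 and miR-212 are transcribed on neuronal activity through CREB, the miR-17-92 cluster acts in proliferating progenitors, and the imprinted Dlk1-Dio3 region of chromosome 12 expresses a large set of miRNAs from the maternal allele. An age difference in bulk tissue can come from fewer cells of a type or from less RNA per cell, and these cannot be told apart here.

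Between 12721648 and 17282758 reads were deposited per P15 sample and between 20534330 and 34298726 per P90 sample, so depth did not overlap between the ages. Reads that lay in a named mouse miRNA hairpin made up 73.9 to 74.5% of the P15 reads and 75.8 to 77.7% of the P90 reads. Each arm was given in CPM, read counts scaled to a fixed library total, on the TMM scale, which sets the bulk of the miRNAs as equal between samples. On this scale the summed level of all miRNAs came to 752520 to 803290 CPM at P15 and 1264400 to 1336300 CPM at P90, a ratio of 1.67 that follows from the TMM factors (1.24 to 1.33 at P15, 0.748 to 0.791 at P90). Scaling to total reads instead moved the median log2 fold change of all miRNAs by -0.70, so the same change was lower by that amount when read as a share of reads. Of the 27 called arms that are named here by size of change or level, miR-26a-5p, miR-30c-5p and miR-30e-5p lost their call on total reads and the others kept it. No batch or run was named in the labels, and age cannot be told apart from depth or from any batch that followed age.

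The mature sequences of the miRNAs the comparison turned on are set out here, from RefSeq (GRCm38.p6), written 5′ to 3′ with the seed in capitals. Among arms with a mean of at least 50 CPM at the higher age, those with the largest rise at P90 included members of the miR-29 family, whose 3 mature 3p arms share 1 seed, and of the miR-132/212 locus, beside miR-182-5p, miR-338-3p, miR-664-3p and miR-23a-3p.
miR-29a-3p: uAGCACCAucugaaaucgguua
miR-29b-3p: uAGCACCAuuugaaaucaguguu
miR-29c-3p: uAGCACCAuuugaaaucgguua
miR-132-3p: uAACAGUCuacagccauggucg
miR-212-3p: uAACAGUCuccagucacggcca
miR-132-5p: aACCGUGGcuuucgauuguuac
miR-212-5p: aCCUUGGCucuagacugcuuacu
miR-182-5p: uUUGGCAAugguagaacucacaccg
miR-338-3p: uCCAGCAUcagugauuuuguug
miR-664-3p: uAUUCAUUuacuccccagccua
miR-23a-3p: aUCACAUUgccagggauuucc
The abundant miRNAs that gained most reads included 3 members of the miR-30 family, which share a seed, and miR-26a-5p.
miR-30a-5p: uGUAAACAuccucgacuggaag
miR-30c-5p: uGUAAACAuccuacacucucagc
miR-30e-5p: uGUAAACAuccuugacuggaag
miR-26a-5p: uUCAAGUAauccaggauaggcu
miR-218-5p: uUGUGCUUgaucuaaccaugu
Those with the largest fall came from the Mir296/Mir298 pair, the Dlk1-Dio3 region, the miR-17-92 cluster and the hairpin of miR-1983 on chromosome 13.
miR-296-3p: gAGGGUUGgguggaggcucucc
miR-296-5p: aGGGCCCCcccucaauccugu
miR-298-5p: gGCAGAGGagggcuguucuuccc
miR-323-3p: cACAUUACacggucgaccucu
miR-412-3p: uUCACCUGguccacuagccg
miR-412-5p: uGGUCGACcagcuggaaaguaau
miR-666-5p: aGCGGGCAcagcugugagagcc
miR-770-3p: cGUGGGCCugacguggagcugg
miR-18a-5p: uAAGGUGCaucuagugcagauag
miR-1983: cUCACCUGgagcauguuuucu
The RefSeq sequences of miR-412-3p and miR-1983 share the seed UCACCUG, but the most abundant read of miR-412-3p in these samples had the seed UUCACCU. In the same way, the most abundant read of miR-132-5p had the seed CCGUGGC rather than the ACCGUGG of RefSeq.

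Of 835 miRNA arms tested, 255 differed between P90 and P15 SHAM (30.5%; edgeR quasi-likelihood test, called where the log2 fold change was past 1 and the Benjamini-Hochberg adjusted p was under 0.05). At P90, 130 arms were higher (15.6%) and 125 were lower (15%). The 3 P15 and the 3 P90 values did not overlap for 488 arms (58.4%), and 249 of the 255 called arms were among these. The 10 largest rises and the 10 largest falls named below were chosen among arms without overlap. In those arms the lack of overlap is a condition of the choice and not a result. The median log2 fold change of all arms tested was 0.06, and age separated the samples along the principal component that held 79.1% of the variance. On the scale of total reads 35 arms were higher and 293 lower. All 125 lower arms stayed lower on that scale, 35 of the 130 higher arms stayed higher, and 0 called arms were called in the other direction. With the 12 SHAM samples of both times in 1 fit and time as a covariate, 97 arms were higher and 166 lower. Scaling to total reads moved the log2 fold changes down by nearly the same amount (-0.70 in the median). Called falls therefore kept their call by construction, and rises that passed 1 by less than this shift lost theirs. The counts on the 2 scales thus do not show that the falls were firmer than the rises.

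The miR-29 family had the highest median log2 fold change of the 11 families and clusters examined as lists. miR-29a-3p, from Mir29a on chromosome 6 (chr6:31062660-31062747, GRCm38), was at 13117, 17645 and 18456 CPM at P15 and 126324, 143324 and 135743 CPM at P90 (log2 fold change 3.04 ± 0.17 (SE), edgeR adjusted p = 1.41e-06). It took 1.74, 2.19 and 2.41% of hairpin reads at P15 and 9.43, 11.2 and 10.7% at P90. No P90 sample came near a P15 sample, and the rise was also called on total reads (log2 fold change 2.35). miR-29b-3p was at 1334, 1786 and 2685 CPM at P15 and 13498, 25916 and 21239.7 CPM at P90 (log2 fold change 3.39 ± 0.30 (SE), edgeR adjusted p = 5.47e-06), and miR-29c-3p at 3617, 5276 and 5226 CPM at P15 and 26121, 29548 and 24809 CPM at P90 (log2 fold change 2.51 ± 0.18 (SE), edgeR adjusted p = 1.61e-06). In each of the 3 the highest P15 value lay far under the lowest P90 value. The minor arm miR-29a-5p, whose hairpin it shares with miR-29a-3p, was at 109.6, 116 and 111 CPM at P15 and 543, 555 and 469 CPM at P90 (log2 fold change 2.22 ± 0.16 (SE), edgeR adjusted p = 1.61e-06). Both arms of this hairpin were thus higher in every P90 sample. All 7 tested arms of the list were higher, with a median log2 fold change of 2.22 against 0.06 for all arms, and 4 of 7 were higher on total reads. The 4 hairpins together took 2.45, 3.12 and 3.49% of hairpin reads at P15 and 12.5, 15.6 and 14.4% at P90.

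Both arms of Mir132 and of its neighbour Mir212 rose. miR-132-3p (chr11:75173682-75173747 on chromosome 11, in an intron of the noncoding gene 1700016P03Rik) was at 8077, 7375 and 7731 CPM at P15 and 28426, 29799 and 31752 CPM at P90 (log2 fold change 1.96 ± 0.14 (SE), edgeR adjusted p = 1.61e-06), and its other arm miR-132-5p was at 1152, 1014 and 1096 CPM at P15 and 5349.7, 4874 and 4503 CPM at P90 (log2 fold change 2.17 ± 0.15 (SE), edgeR adjusted p = 1.61e-06). miR-212-5p was at 54, 48.1 and 59.8 CPM at P15 and 209, 271 and 207 CPM at P90 (log2 fold change 2.09 ± 0.18 (SE), edgeR adjusted p = 5.47e-06). The 3 P15 samples lay close together for each of these arms and well below all 3 P90 samples. miR-212-3p, which has the seed of miR-132-3p, rose less (log2 fold change 1.33). Of the 19 tested arms of miRNAs known for regulation by neuronal activity or for a role at synapses, 5 were higher and 0 lower (26.3% called, against 30.5% of all arms tested), with a median log2 fold change of 0.28, and on total reads 3 were higher and 3 lower. The fifth was miR-129-2-3p (1.25). The 14 others did not pass, among them miR-128-3p (0.57), miR-137-3p (0.28), miR-138-5p (0.92) and miR-134-5p (-0.71), so the calls covered the Mir132/Mir212 locus and 1 other arm.

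**Figure D1:**
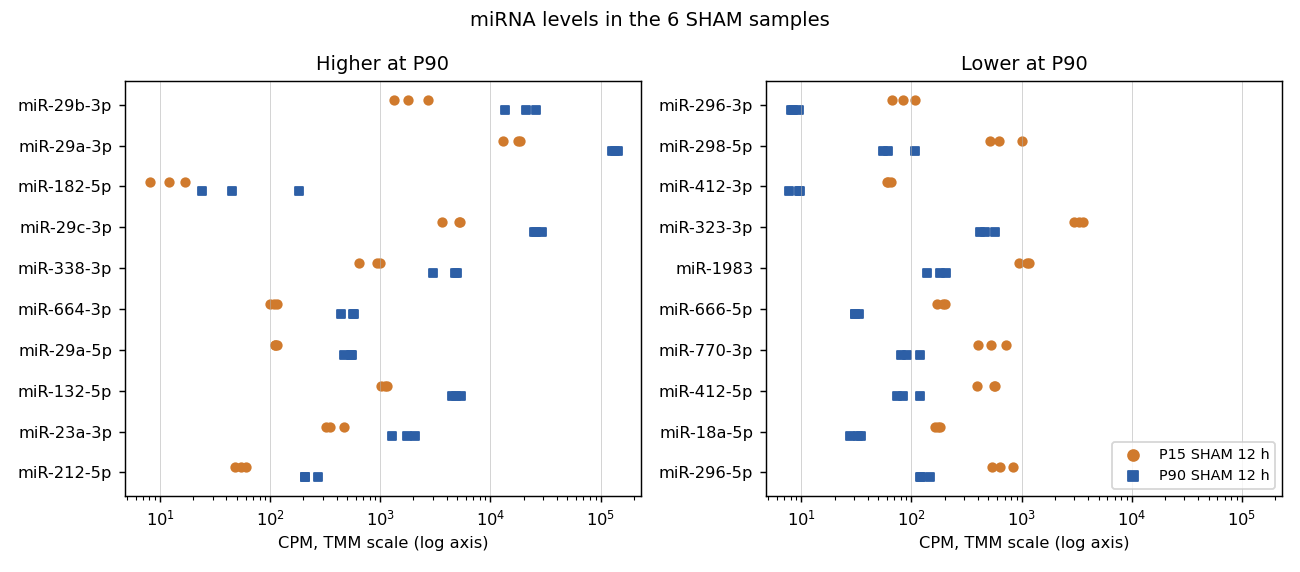
Level of the 10 miRNAs with the largest rise (left) and the 10 with the largest fall (right) at P90, in CPM on the TMM scale (log axis), with 1 point for each of the 3 P15 and 3 P90 SHAM samples. The points of the 2 ages do not overlap for any of the 20, which was a condition of their choice. The widest spread is that of miR-182-5p at P90, from 24 to 184 CPM.

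Among the abundant miRNAs, the gain in reads was led by miR-29a-3p and then by miR-26a-5p, which rises during neuronal differentiation. miR-26a-5p was at 31424, 36749 and 35319 CPM at P15 and 94782, 82128 and 90357 CPM at P90 (log2 fold change 1.37 ± 0.14 (SE), edgeR adjusted p = 1.86e-05). Every P90 sample was above every P15 sample, but on total reads the log2 fold change was 0.67 and was not called. miR-30a-5p was at 9379.5, 11757 and 11493 CPM at P15 and 40006, 32773 and 35487 CPM at P90 (log2 fold change 1.73 ± 0.16 (SE), edgeR adjusted p = 7.02e-06) and kept its call on total reads (1.03). miR-30c-5p (1.29) and miR-30e-5p (1.45) were higher on the TMM scale, with 0.59 and 0.75 on total reads, neither of them called. In the miR-30 family 5 of 11 tested arms were higher, against 15.6% of all arms tested, and 0 lower, and all 11 had a positive log2 fold change (median 0.82, or 0.12 on total reads, where 1 arm was called higher). miR-218-5p, a neuronal miRNA, was at 5240.5, 6717 and 5928 CPM at P15 and 24411, 18026 and 16682 CPM at P90 (log2 fold change 1.72 ± 0.18 (SE), edgeR adjusted p = 1.95e-05). miR-124-3p, which represses non-neuronal transcripts in neurons, was at 2886, 3314 and 3985 CPM at P15 and 8979, 15676 and 11513 CPM at P90 (log2 fold change 1.83 ± 0.21 (SE), edgeR adjusted p = 4.22e-05). For both, each P90 value was above the 3 P15 values.

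Arms that were not called held 74.2 to 76.8% of hairpin reads at P15 and 55.3 to 58.3% at P90. miR-9-5p, which is made in both progenitors and neurons, took 13.1, 13 and 10.8% of hairpin reads at P15 and 11.3, 8.53 and 8.3% at P90. These shares overlapped, with a log2 fold change of 0.36 (edgeR adjusted p = 0.109) on the TMM scale and -0.34 on total reads, so its sign turned with the scale. The sign also turned for miR-9-3p (0.12 against -0.58) and for miR-128-3p, a miRNA that limits neuronal excitability (0.57 against -0.12). miR-128-3p took 9.56, 9.76 and 9.79% of hairpin reads at P15 and 8.2, 8.82 and 8.9% at P90. miR-181a-5p had a log2 fold change of -0.05 (edgeR adjusted p = 0.789), and -0.75 on total reads. The 10 most abundant miRNAs held 46.9 to 48.5% of hairpin reads at P15 and 50.9 to 53.6% at P90.

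The let-7 family, whose maturation is blocked by Lin28 in early embryonic cells, was not called in any of its 9 tested 5p arms, the arms that do most of its repression (edgeR, with 4 of the 9 at an unadjusted p under 0.05). let-7g-5p (0.82) and let-7f-5p (0.83) were positive on the TMM scale and near 0 on total reads (0.12 and 0.12), and let-7b-5p (-0.04), let-7c-5p (-0.01) and let-7i-5p (0.06) lay lower. The 5 members that rose were all minor 3p arms, of 11 tested: let-7g-3p (1.62), let-7f-1-3p (1.46), let-7e-3p (1.44), let-7i-3p (1.38) and let-7b-3p (1.21). The family as a whole took 13.4, 9.97 and 8.57% of hairpin reads at P15 and 10.6, 8.22 and 8.73% at P90, and these shares overlapped. Of its 20 tested arms 25% were called, against 30.5% of all arms tested. Their median log2 fold change was 0.75, or 0.05 on total reads, where 0 of the 20 were called.

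Other arms with a large rise were miR-338-3p, miR-664-3p and miR-23a-3p. miR-338-3p, encoded in an intron of Aatk (chr11:120014765-120014862) and known from maturing oligodendrocytes, was at 642, 923 and 999 CPM at P15 and 3001, 4766 and 4965 CPM at P90 (log2 fold change 2.31 ± 0.23 (SE), edgeR adjusted p = 1.31e-05). Every P90 sample was above every P15 sample. miR-664-3p, from an intron of Rab3gap2, was at 116, 98.5 and 107 CPM at P15 and 440.0, 560.3 and 577 CPM at P90 (log2 fold change 2.30 ± 0.17 (SE), edgeR adjusted p = 2.05e-06), with tight groups that did not overlap. miR-23a-3p was at 346, 321 and 468 CPM at P15 and 1286, 2059 and 1764 CPM at P90 (log2 fold change 2.17 ± 0.21 (SE), edgeR adjusted p = 1.16e-05), again without overlap. It leads the miR-23/27/24 clusters, in which 7 of 13 tested arms were higher and 1 lower, against 15.6% and 15% of all arms tested. Their median was 1.09, or 0.39 on total reads, where 2 were higher and 1 lower. The other higher arms were miR-27a-3p (1.79), miR-23b-3p (1.44), miR-27b-3p (1.24), miR-24-3p (1.09) and the 5p arms of both Mir24 hairpins. The lower arm was miR-3074-5p (-1.17), whose hairpin lies on the strand opposite to Mir24-1.

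The size of 1 rise rested on P90 replicate 3. miR-182-5p, known from sensory organs, was at 16.9, 8.1 and 12.2 CPM at P15 and 44.9, 24 and 184 CPM at P90 (log2 fold change 2.76 ± 0.62 (SE), edgeR adjusted p = 0.00313). The groups did not overlap, but P90 replicate 3 was far above the other two. Without it the log2 fold change was 1.48 (edgeR adjusted p = 0.00221). In the same sample miR-183-5p, from the same cluster, was at 11.3 CPM against 1.31 and 1.97 CPM, and the epithelial miR-200a-3p was at 319 CPM against 70.1 and 22.7 CPM. The P15 values of miR-200a-3p were 51.2, 33.4 and 49.4 CPM, so its groups overlapped, and it was not called. The part of these epithelial and sensory miRNAs in the P90 value of miR-182-5p was not tested.

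Among arms with a mean of at least 50 CPM at P15, the largest falls were those of a neighbouring pair on chromosome 2. Mir296 (chr2:174267047-174267125, minus strand) and Mir298 (chr2:174267504-174267585, minus strand) lie next to each other in the imprinted Gnas region. miR-296-3p was at 107, 84.2 and 67.1 CPM at P15 and 8.35, 8.04 and 9.48 CPM at P90 (log2 fold change -3.32 ± 0.23 (SE), edgeR adjusted p = 1.61e-06), and miR-296-5p was at 833, 632 and 542 CPM at P15 and 147, 121 and 120.2 CPM at P90 (log2 fold change -2.37 ± 0.20 (SE), edgeR adjusted p = 4.22e-06). miR-298-5p was at 1012, 621 and 522 CPM at P15 and 108, 61.5 and 55.1 CPM at P90 (log2 fold change -3.26 ± 0.31 (SE), edgeR adjusted p = 1.05e-05). All 3 P90 samples were below all P15 samples for each of the 3 arms, although P15 replicate 1 was above the others. These arms are rich in G and C, and after a correction for GC content the log2 fold changes were -2.74, -1.85 and -2.93, still called. miR-1983, from a hairpin on chromosome 13, was at 948, 1167 and 1116 CPM at P15 and 138, 207 and 182 CPM at P90 (log2 fold change -2.62 ± 0.19 (SE), edgeR adjusted p = 1.61e-06), with no overlap.

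Among arms with a mean of at least 50 CPM at the higher age and no overlap, the Dlk1-Dio3 region held 5 of the 10 largest falls, 22 of all 43 falls and 0 of the 10 largest rises. It was taken as every named hairpin between the start of Dlk1 and the end of Dio3 (chr12:109452823-110281097). Of its 61 hairpins, 102 arms were tested, of which 34 were lower and 3 higher, while 91 of the 733 arms outside the region were lower and 127 higher. The median log2 fold change was -0.60 in the region and 0.15 outside it. The region took 12.1, 13.5 and 13.9% of hairpin reads at P15 and 6.27, 6.88 and 6.48% at P90, lower in all 3 P90 samples. On the TMM scale its summed level fell less, from 91286, 108700 and 106690 CPM at P15 to 83939, 88149 and 82041 CPM at P90 (ratio of means 0.83). miR-323-3p was at 3334, 3611 and 2963 CPM at P15 and 579.5, 467 and 422 CPM at P90 (log2 fold change -2.75 ± 0.17 (SE), edgeR adjusted p = 1.61e-06). Both arms of Mir412, an exonic hairpin of the noncoding gene Mirg, fell: miR-412-3p was at 61.4, 65.3 and 60.4 CPM at P15 and 7.79, 9.43 and 9.64 CPM at P90 (log2 fold change -2.80 ± 0.19 (SE), edgeR adjusted p = 1.61e-06), and miR-412-5p was at 569, 564 and 397 CPM at P15 and 120.2, 83.5 and 73.9 CPM at P90 (log2 fold change -2.46 ± 0.23 (SE), edgeR adjusted p = 7.86e-06). The groups were well apart for each of these arms. miR-666-5p was at 194, 171 and 201 CPM at P15 and 31, 33.1 and 30.8 CPM at P90 (log2 fold change -2.58 ± 0.17 (SE), edgeR adjusted p = 1.61e-06). miR-770-3p, from an exon of the maternally expressed Meg3 transcript, was at 727, 522 and 399.9 CPM at P15 and 121, 80.9 and 90.3 CPM at P90 (log2 fold change -2.50 ± 0.24 (SE), edgeR adjusted p = 1.10e-05). Its GC content is 72.7%, and after the GC correction its log2 fold change was -1.74.

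Arms of both clusters of the region fell, without every member. Of all arms tested 15% were lower. From Mir770 to Mir136 (chr12:109563692-109595388) 11 of 25 arms were lower and 1 higher (median -0.74), and from Mir379 to Mir3072 (chr12:109709060-109747960) 18 of 70 were lower and 2 higher (median -0.48). The summed level of the first cluster was nevertheless 36337, 40617 and 42237 CPM at P15 and 36466, 41984 and 37314 CPM at P90, which overlap (ratio of means 0.971), and the ratio was 0.74 in the second. The 3 arms that rose were miR-540-5p (2.75), miR-376b-5p (1.60) and miR-299a-5p (1.58). miR-134-5p, a dendritic miRNA of the second cluster, had a log2 fold change of -0.71 and was not called. On total reads, where the median of all miRNAs shifted by -0.70, the region had 62 arms lower and 1 higher. Outside the region 229 arms were then lower and 34 higher. The median log2 fold change on that scale was -1.30 in the region and -0.55 outside it. Without P15 replicate 3 the number of higher arms on the TMM scale was 6, and without P90 replicate 1 it was 5. The members moved by different amounts, with log2 fold changes from -3.60 to 2.75, where the lowest was that of miR-1197-3p, whose mean of 34.4 CPM at P15 is under the limit above, and the highest that of miR-540-5p.

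The proliferation-linked miR-17-92 cluster and its paralogs had 10 of 22 tested arms lower, against 15% of all arms tested, and 0 higher, with a median log2 fold change of -1.03 (-1.72 on total reads). In the chromosome 14 cluster itself (Mir17 to Mir92-1, chr14:115043671-115044506) 8 of 11 arms were lower, and all 11 log2 fold changes were negative (median -1.24). miR-18a-5p, from Mir18 in an exon of Mir17hg, was at 165, 181 and 174 CPM at P15 and 32.4, 34.8 and 27.7 CPM at P90 (log2 fold change -2.45 ± 0.17 (SE), edgeR adjusted p = 1.61e-06), with no overlap. Its X-linked paralog, from Mir106a to Mir363, had 3 of 6 arms lower and 0 higher (median -1.16). miR-19b-3p, whose reads come from hairpins of both clusters, is counted in each. The members of the other paralog, in an intron of Mcm7, were not called and had log2 fold changes nearer to or above 0: miR-106b-5p was at -0.55, miR-93-5p at -0.15 and miR-25-3p at 0.76. The list took 0.888, 0.846 and 0.805% of hairpin reads at P15 and 0.389, 0.33 and 0.327% at P90, a fall seen in each P90 sample. On the TMM scale the fall was smaller, from 6695, 6807 and 6178 CPM at P15 to 5213, 4228 and 4142.5 CPM at P90 (ratio of means 0.69). Another X-linked cluster, from Mir322 to Mir450b, had 6 of 13 arms lower and 0 higher (median -0.97).

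The chromosome 2 cluster from Mir466m to Mir669h, with 65 hairpins in an intron of Sfmbt2, had 7 of 37 tested arms lower, against 15% of all arms tested, and 0 higher (median -0.63), and since its hairpins are near-identical copies the split of reads among them is uncertain. The X-linked cluster from Mir532 to Mir500 had 1 of 10 arms lower (median -0.25), against 15% of all arms tested. The Mir344 cluster on chromosome 7 had 1 of 4 higher (median 0.73), against 15.6% of all arms tested. In the family of miR-15, miR-16, miR-195, miR-497, miR-322 and miR-503, 3 of 15 arms were lower, all from the Mir322 and Mir503 hairpins (miR-503-5p at -1.42, miR-503-3p at -1.24, miR-322-3p at -1.14), and miR-15a-3p was higher (1.28), so 26.7% were called against 30.5% of all arms tested. With the replicate block 2 arms of this family were higher, and without P15 replicate 3 there were 4. In the families of miR-130, miR-301, miR-148 and miR-152, 2 of 14 were lower, among them miR-130a-3p (-1.56), and miR-152-3p was higher (1.08). Of these families 21.4% of arms were called, against 30.5% of all arms tested. The miR-181 family had 1 of 10 lower (median -0.39), a call that was lost in 5 of the 6 fits that left out 1 sample. The miR-125/99/100 family had 0 of 11 called in either direction by edgeR and by DESeq2, with 7 at an unadjusted p under 0.05, a median of 0.38, and 1 higher without P15 replicate 3 or P90 replicate 3.

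**Figure D2:**
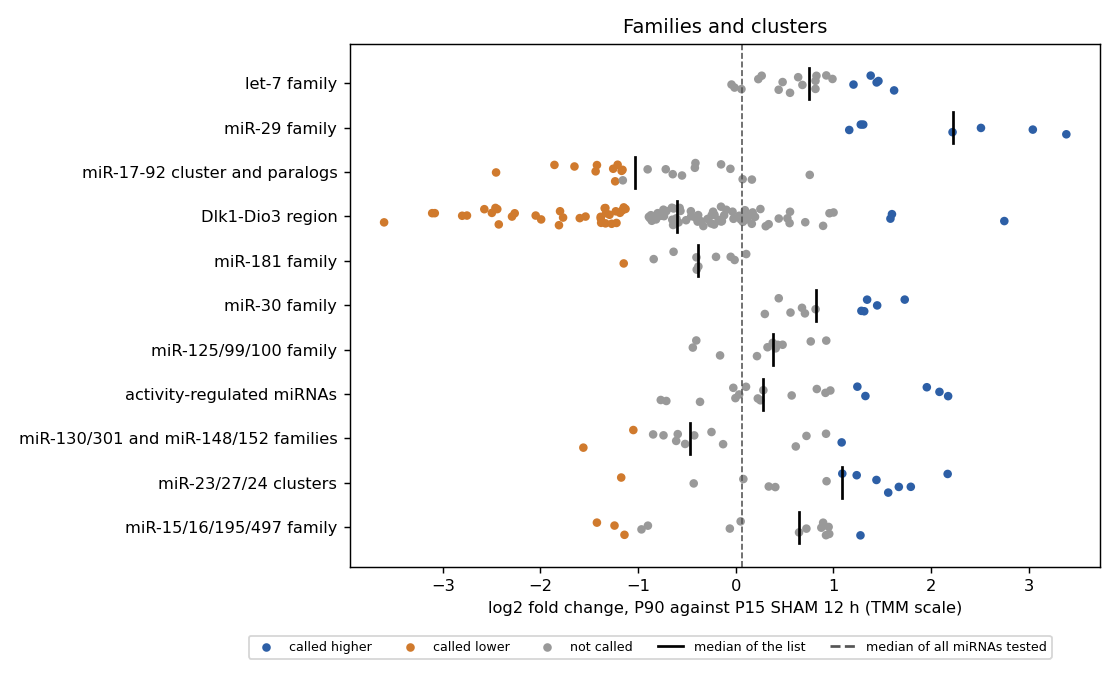
log2 fold change (P90 against P15 SHAM 12 h, TMM scale) of every tested arm in the miRNA families and clusters, with 1 point per arm and a bar at the median of each list. The miR-29 list lies to the right of 0 (median 2.22), the miR-17-92 list mostly to the left (median -1.03), and the dashed line is the median of all 835 arms (0.06).

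Summed by seed, 217 of 709 seed families differed (30.6%; edgeR), 98 higher and 119 lower, or 28 higher and 255 lower on total reads. The AGCACCA family of miR-29a-3p, miR-29b-3p and miR-29c-3p was at 18410.1, 24983 and 26936 CPM at P15 and 164759, 193041 and 179126 CPM at P90 (log2 fold change 2.93 ± 0.17 (SE), edgeR adjusted p = 2.98e-07), and miR-29a-3p held 74.1% of its reads. The other families with the largest rise were those of miR-182-5p, miR-338-3p, miR-664-3p and miR-29a-5p, and those with the largest fall were led by miR-296-3p, miR-298-5p, miR-412-3p, miR-323-3p and miR-1983. Hairpins whose arms were both tested gave 338 distinct pairs of a 5p and a 3p arm, of which 57 had both arms called: 31 higher, 25 lower and 1 split. In the split hairpin, Mir3102, the 5p arm fell (-1.01) and the second 3p product rose (1.69). The log2 fold changes of both arms had the same sign in 255 of the 338 pairs (Pearson r 0.69 across pairs, which are not independent replicates, and some pairs of copied hairpins share an arm).

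Reads of the same arm were shorter at P90. The mean length of hairpin reads was 21.87 to 21.90 nt in the P15 samples and 21.69 to 21.70 nt in the P90 samples. Of this difference of -0.19 nt, -0.17 nt came from shorter reads within arms and -0.02 nt from the change in which arms were abundant. Among 424 arms with at least 100 reads in every sample, 126 differed in mean read length (29.7%; limma, adjusted p under 0.05 and a difference past 0.2 nt), 117 shorter and 9 longer at P90. In 112 of the 126 the share of reads with the leading 5′ start moved by under 5 percentage points, so the seed of most reads stayed the same and the 3′ end differed. Of 203 tested 5p arms 66 were shorter, and of 221 tested 3p arms 51 were. Shorter reads were called in 117 of all 424 arms. Among the lists they were called in 5 of 6 miR-29 arms, 7 of 11 miR-30 arms, 5 of 8 arms of the miR-23/27/24 clusters, 7 of 19 activity-regulated arms, 3 of 8 miR-181 arms and 1 of 17 let-7 arms. Of the 117 shorter arms, 41 were also called higher and 8 called lower, and across the 424 arms the length difference and the log2 fold change had a Pearson r of -0.26.
The reads of miR-30a-5p with the leading 5′ start are shown as an example from the most abundant arms, with the 3′ bases beyond the shortest read in capitals.
miR-30a-5p, 20 nt: uguaaacauccucgacugga
miR-30a-5p, 21 nt: uguaaacauccucgacuggaA
miR-30a-5p, 22 nt: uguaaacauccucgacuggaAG
miR-30a-5p, 23 nt: uguaaacauccucgacuggaAGC
miR-30a-5p, 24 nt: uguaaacauccucgacuggaAGCU
The 24 nt read held 50.8, 49.7 and 49.7% at P15 and 25.8, 27.1 and 25.9% at P90, and the 21 nt read 5.72, 6.3 and 5.2% at P15 and 19.2, 17.4 and 16.6% at P90. The longest form was thus lower in all 3 P90 samples than in any P15 sample, and a shorter form was higher. In miR-29a-3p the 22 nt read held 54.8, 56.6 and 56.1% at P15 and 33, 36.2 and 36.4% at P90, and the 21 nt read 32.2, 31 and 31.3% at P15 and 51.1, 48.7 and 47.8% at P90, so the order of the 2 forms was reversed in every P90 sample.
miR-29a-3p, 19 nt: uagcaccaucugaaaucgg
miR-29a-3p, 20 nt: uagcaccaucugaaaucggU
miR-29a-3p, 21 nt: uagcaccaucugaaaucggUU
miR-29a-3p, 22 nt: uagcaccaucugaaaucggUUA
miR-29a-3p, 23 nt: uagcaccaucugaaaucggUUAU
Only reads that matched a hairpin over their whole length were counted, so reads with untemplated 3′ bases are left out of these lengths.

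The arms with the largest shortening were miR-221-5p, miR-412-5p, miR-409-5p, miR-3068-5p and miR-153-3p, with differences of -1.59, -1.27, -1.18, -1.05 and -0.93 nt. The mean read of miR-221-5p was 25.24, 25.38 and 25.43 nt at P15 and 23.98, 23.57 and 23.74 nt at P90. The mean read of miR-412-5p, one of the falling arms of the Dlk1-Dio3 region, was 22.12, 22.14 and 22.02 nt at P15 and 20.78, 20.87 and 20.83 nt at P90. No sample of one age came near the other age in these arms. miR-409-5p lies in the same region and was not called in level (log2 fold change -0.15). In miR-412-5p the 23 nt read held 59.6, 60.2 and 55.8% at P15 and 20.4, 22 and 22.2% at P90, and the 20 nt read 16.7, 16.9 and 19.4% at P15 and 58.9, 56.9 and 56.2% at P90. The main product was therefore a different 3′ form at each age.
miR-412-5p, 19 nt: uggucgaccagcuggaaag
miR-412-5p, 20 nt: uggucgaccagcuggaaagU
miR-412-5p, 21 nt: uggucgaccagcuggaaagUA
miR-412-5p, 22 nt: uggucgaccagcuggaaagUAA
miR-412-5p, 23 nt: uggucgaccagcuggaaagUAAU
In miR-153-3p, which represses genes of synaptic vesicle release, the 24 nt read held 36.4, 35 and 34.6% at P15 and 9.05, 9.46 and 9.71% at P90. Longer reads at P90 were seen most in miR-877-5p, miR-667-5p, miR-3099-3p, miR-744-3p and miR-186-3p (0.74, 0.44, 0.37, 0.34 and 0.29 nt). In miR-744-3p the 22 nt read held 12.9, 16.4 and 11.3% at P15 and 42.7, 37.7 and 37.6% at P90.

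**Figure D3:**
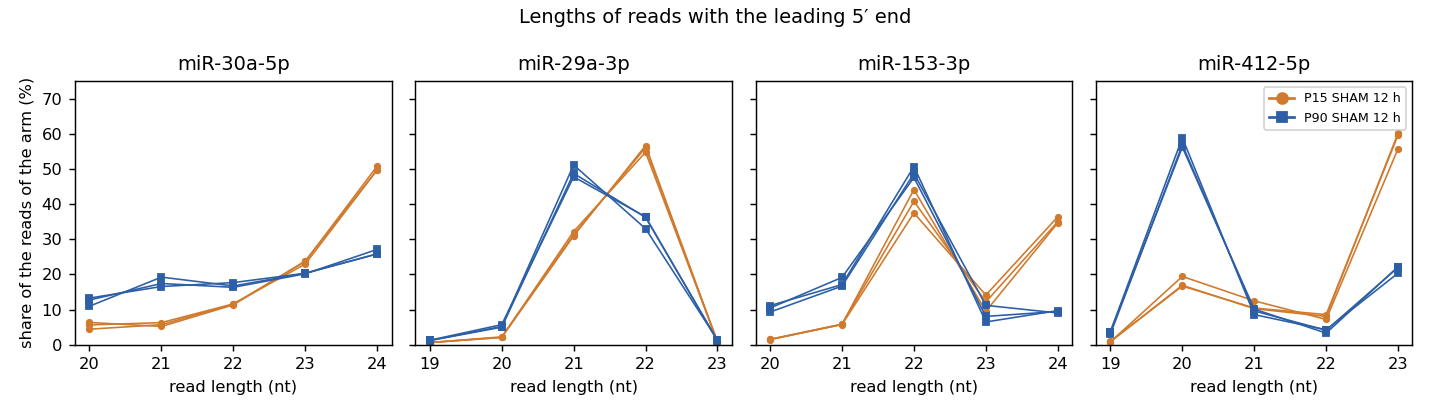
Share (%) of the reads of miR-30a-5p, miR-29a-3p, miR-153-3p and miR-412-5p at each read length in nt, among reads with the leading 5′ start, with 1 line for each of the 3 P15 and 3 P90 SHAM samples. The 24 nt read of miR-30a-5p holds 50.8, 49.7 and 49.7% at P15 and 25.8, 27.1 and 25.9% at P90, and the 23 nt read of miR-412-5p 59.6, 60.2 and 55.8% at P15 and 20.4, 22 and 22.2% at P90.

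The same contrast of read length was measured in samples of other mice. Of the 126 arms, 111 were tested between P90 and P15 SCI at 12 h, where 109 had the same sign and 89 were called. The differences of the 2 comparisons had a Pearson r of 0.94 across 389 arms, and those of SHAM at 12 h and at 3 days 0.76 across 369 arms. The mean length of all hairpin reads, however, was 21.73 to 21.78 nt at P15 and 21.72 to 21.76 nt at P90 in SHAM at 3 days, and these ranges overlapped. Of the 5 arms with the largest shortening, miR-221-5p was not shorter there but differed by 0.13 nt in the other direction. The others kept their direction and differed less: miR-412-5p by -0.97 nt, miR-409-5p by -0.26 nt, miR-3068-5p by -0.98 nt and miR-153-3p by -0.55 nt. In SCI at 12 h the 5 differences were -1.09, -1.26, -0.86, -1.02 and -0.94 nt, in that order. Counting only the single most abundant sequence of each arm, miR-30a-5p, miR-30c-5p and miR-30e-5p lost their calls, while the number of arms called was 222.

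The GC content of an arm moved with its age difference. The share of G and C in hairpin reads was 42.5 to 43.0% at P15 and 42.2 to 42.7% at P90. Across 835 arms the GC content of the most abundant read and the log2 fold change had a Pearson r of -0.21 and a Spearman rho of -0.18. Of 143 arms with over 60% GC, 37 were lower and 5 higher (median log2 fold change -0.42), whereas of 161 arms under 40% GC, 14 were lower and 34 higher (median 0.14), and of 531 arms between, 74 were lower and 91 higher (median 0.13). After a correction for GC content within each sample, 252 arms were called, 123 higher and 129 lower, and 218 of these were among the 255. Of the arms with over 60% GC, 23 were then lower and 16 higher. The miR-29 family then had 6 of 7 arms higher, the miR-17-92 list 12 arms lower and the Dlk1-Dio3 region 29 lower and 3 higher. The length of the most abundant read had a Pearson r of 0.09 with the log2 fold change and the log2 mean CPM one of 0.20.

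**Figure D4:**
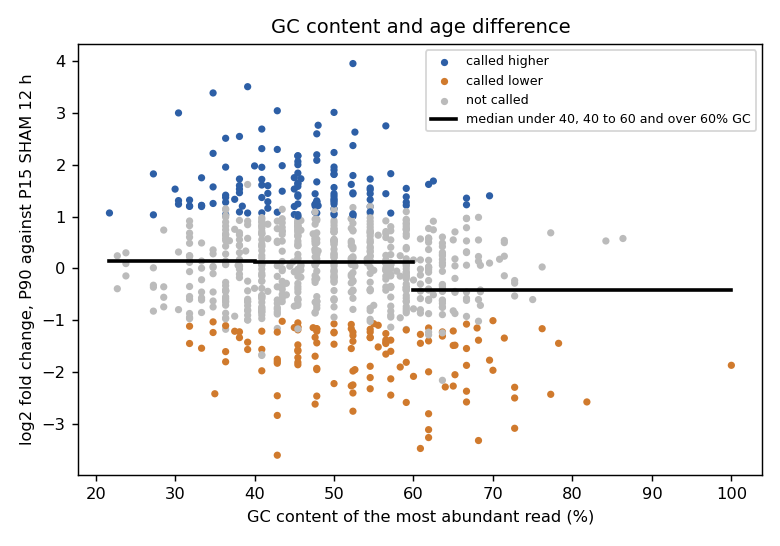
log2 fold change (P90 against P15 SHAM 12 h) of the 835 tested arms against the GC content (%) of their most abundant read, with black bars at the median of the arms under 40%, from 40 to 60% and over 60% GC. The bar over 60% GC lies at -0.42, below the bars at 0.14 and 0.13.

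The same contrast in SCI mice at 12 h, in other animals, gave 288 of 801 arms (36%; edgeR), 120 higher and 168 lower. Of the 251 arms called in SHAM and tested in SCI, 246 had the same sign and 197 were called (78.5% of these, and 69.1% of the 285 called in SCI and tested in SHAM), all but 2 in the same direction. The log2 fold changes had a Pearson r of 0.88 across 793 arms. All 27 called arms among the 33 most changed or most abundant were called the same way in SCI. For instance, miR-29a-3p had 3.04 in SCI, miR-132-5p 1.78, miR-338-3p 2.55 and miR-296-3p -3.77. In SCI the miR-29 family had 5 of 7 arms higher, the miR-17-92 list 13 of 22 lower and the Dlk1-Dio3 region 45 of 101 lower and 5 higher. The 2 arms called in opposite directions were miR-1298-5p (-1.13 in SHAM, 2.51 in SCI) and miR-1912-3p (-1.57 and 3.84), both known from the choroid plexus. In SCI their rise came from 1 sample. miR-1298-5p was at 371 CPM of hairpin reads in P90 SCI replicate 1, against 25.3 and 29.3 in the other two.

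The age difference in SCI minus that in SHAM, tested itself over the 12 samples of 12 h, was called in 0 of 816 arms (0%; edgeR), with 39 at an unadjusted p under 0.05 and 2 called by DESeq2. In SHAM at 3 days 163 of 906 arms were called between the ages (18%; edgeR), 62 higher and 101 lower. Of the 252 arms called at 12 h and tested at 3 days, 232 had the same sign and 108 were called (42.9% of these, and 68.4% of the 158 called at 3 days and tested at 12 h), and the log2 fold changes had a Pearson r of 0.70 across 815 arms. Of the 27 called arms above, all 27 had the same sign and 22 were called. The P15 SHAM replicates 1 and 2 of 3 days stood apart, with 58.6 and 56.5% of reads in hairpins against 70.9% in replicate 3. Sequences with a single read made up 33.8 and 35.6% of the distinct ones there and 81.4% in replicate 3, and the part of this in the 3-day comparison was not tested. Without P15 replicate 3 the count was 370, and without P90 replicate 3 it was 0. The number of arms called at 3 days thus rested on single samples, whereas at 12 h it stayed between 237 and 263 when any sample was left out.

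**Figure D5:**
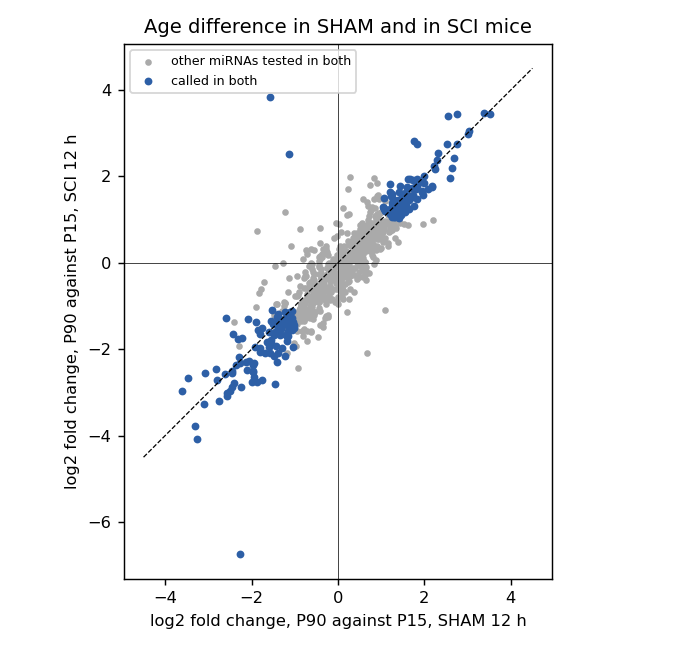
log2 fold change between P90 and P15 of the 793 arms tested in both, in SHAM at 12 h (x axis) and in SCI at 12 h (y axis), with the arms called in both in colour and the line of equal change dashed. The arms called in the same direction lie near the line, and the 2 called in opposite directions lie in the upper left.

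Markers of cell types were compared between the ages as well, where 15.6% of all arms tested were called higher. The 9 neuronal miRNAs, led by miR-9-5p and miR-128-3p, summed to 246790 to 278590 CPM at P15 and 364600 to 405590 CPM at P90, and 3 were higher and 0 lower. This sum rose by less than that of all miRNAs (a ratio of 1.45 against 1.67). The 4 oligodendrocyte miRNAs summed to 2038 to 2435 CPM at P15 and 5836 to 7619 CPM at P90, with 3 of 4 higher: miR-338-3p, miR-338-5p (1.08) and miR-219a-5p (1.07). Those of red blood cells summed to 523 to 669 CPM at P15 and 1139 to 1606 CPM at P90 (3 of 4 higher, the other being miR-486a-5p at 0.25, whose reads are shared with an identical arm of Mir3107), those of endothelium and vessel wall to 8906 to 14109 CPM at P15 and 15381 to 18683 CPM at P90 (3 of 4), and those of microglia and leukocytes to 1788 to 2051 CPM at P15 and 2257 to 3133 CPM at P90 (1 of 6, miR-150-5p). The sums of these 4 lists did not overlap between the ages, as was also so for 58.4% of all single arms tested. Their ratios were 3.11, 2.36, 1.45 and 1.44, so those of endothelium and vessel wall and of microglia and leukocytes were below the 1.67 of all miRNAs. On total reads the log2 fold changes of miR-338-5p (0.39), miR-219a-5p (0.38) and the 3 higher red blood cell arms (0.61 to 0.88) were under 1. So were those of the 3 higher arms of endothelium and vessel wall (0.40 to 0.93) and of miR-150-5p (0.50), while miR-338-3p was at 1.62. The most abundant arm of the endothelium and vessel wall list, miR-126a-3p, was not called (0.18 on the TMM scale). The part of these cells in the rises, and in particular of oligodendrocytes in that of miR-338-3p, was not tested.

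Tissue next to the cortex was checked in the same way. The 12 choroid plexus and ependyma miRNAs summed to 1221 to 1363 CPM at P15 and 1152 to 1864 CPM at P90, and these ranges overlapped. Of them, 4 were lower and 0 higher, against 15% of all arms tested called lower. The lower arms were miR-449a-5p (-1.59), miR-1912-3p (-1.57, at most 0.784 CPM in any sample), miR-448-3p (-1.23) and miR-1298-5p (-1.13). The members not called were mostly positive: miR-200a-3p (1.62), miR-200b-3p (1.15), miR-34b-5p (0.84), miR-211-5p (0.74), miR-34c-5p (0.69), miR-429-3p (0.66), miR-1264-3p (0.28) and miR-204-5p (-0.02). The hindbrain and spinal cord list summed to only 8.62 to 20.4 CPM at P15 and 16.9 to 26.1 CPM at P90, which overlap. Of its 5 members 2 were tested, where miR-10a-5p was higher (1.95) and miR-10b-5p was not called (-0.24). In the muscle list, 250.1 to 286 CPM at P15 and 919 to 972 CPM at P90, miR-1a-3p (1.82) and miR-133a-3p (1.72) were higher. The muscle-specific miR-206-3p was at 2.61 to 4.76 CPM at P15 and 3.16 to 7.71 CPM at P90 and was not called (0.64). The muscle-specific miR-133b-3p was at most 0.237 CPM in any sample and was not tested. Liver miR-122-5p was at 3.43 to 4.18 CPM at P15 and 5.45 to 6.49 CPM at P90. The neuronal list had the largest sum of the 9 marker lists in each of the 6 samples.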

How the data were processed

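Small RNA libraries made with HD adapters, which carry degenerate bases, were read single end. Before they deposited the files the authors removed reads with ambiguous bases, trimmed the 3′ adapter by a perfect match to its first 8 nt and trimmed 4 degenerate bases from each end. The deposited values are raw read counts of each distinct sequence of every sample, neither mapped nor normalized. For its own analysis the study matched whole reads without mismatch to the genome and then to miRBase miRNAs with PatMaN. The genome build is GRCm38 per the labels.

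Sequences of at least 18 nt were assigned to named hairpins of the GRCm38 annotation by an exact sense match of the whole read, and their counts were summed per arm. Arms with the same most abundant read were joined, and reads that matched several features (0.122 to 0.25% of hairpin reads) were left out. Of 1174 hairpins, 1021 were in the RefSeq table used for mature sequences. Groups were taken from the labels. Arms whose normalized counts averaged 5 or more over the 6 samples were tested with the edgeR 4.0.16 quasi-likelihood test with TMM factors in R 4.3.3, and mean read lengths with limma 3.58.1. Adjusted p-values are Benjamini-Hochberg values over all features tested, and seed families were summed by bases 2 to 8 of the most abundant read. Both fits were tested on simulated data. DESeq2 1.42.0, other scalings and filters, a GC correction (loess of each sample's deviations on GC content, span 0.75) and leaving out each sample were alternatives. No pair of replicates was a copy. Depth was 12721648 to 34298726 reads per sample with 3 samples per group, and counting error adds most to the rarest arms.

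The miRNAs named are the 10 called arms of each direction with the largest log2 fold change among those with at least 50 CPM in the higher group and no overlap, the 10 called arms with the largest difference in CPM, the 10 most abundant arms, the 5 seed families and the 5 length differences of each direction that were largest, and members of the lists and marker lists. The comparison, the lists and the rules were chosen with earlier results of these data known. Replicate numbers, which the labels give in each group, were checked for pairing: same-numbered P15 and P90 samples had correlated deviations from their group means (r 0.33, 0.16 and 0.15), so a fit with the replicate number as a block was an alternative, although the labels do not say what the numbers share.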

Additional observations from a re-analysis of the deposited data

How the results depend on the processing

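The number of arms called between P90 and P15 SHAM stayed within 1.5 times of 255 in every alternative but those that relaxed the fold limit, which gave 413 at a log2 limit of 0.5 and 418 with none. It was 265 with the replicate block, which left the calls of the 33 most changed or most abundant arms as they were, and 237 to 263 without 1 sample. The seed families gave 208 to 233 and the read lengths 121 to 133 without 1 sample. With at least 1000 reads per arm, 68 of 249 arms differed in length instead of 126 of 424, where fewer arms could be tested. In SHAM at 3 days DESeq2 called 254 arms and leaving out a sample gave 0 to 370. The age by injury term had 2 calls by DESeq2 and 0 to 1 without 1 sample. On total reads the log2 fold changes of miR-128-3p, miR-9-3p and miR-9-5p turned to -0.12, -0.58 and -0.34, as the shift of all miRNAs by -0.70 implies. Near 0, miR-181a-5p became 0.12 with the 12 SHAM samples and time as a covariate, 0.0081 for the most abundant sequence alone, 0.16 for reads of 21 to 23 nt, and between -0.13 and 0.015 without 1 sample. Likewise miR-9-3p became -0.021 with the GC correction, -0.020 with the GC correction and the replicate block, -0.0011 in the fit of all 24 samples, and between -0.044 and 0.26 without 1 sample. The cause was not tested. Depth limits the rarest arms: 3 reads corresponded to 0.0875 to 0.236 RPM, depending on the sample. On total reads miR-26a-5p, miR-30c-5p and miR-30e-5p kept their direction but lost their call.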
